A study of Mus musculus with 4 samples.

Results

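The Sox genes encode transcription factors that bind DNA through an HMG box. The 10 described here, Sox2, Sox4, Sox5, Sox6, Sox7, Sox9, Sox10, Sox13, Sox17 and Sox18, were taken by symbol from the 32285 features of the deposited matrices. All 10 had a row in the matrices of all 4 libraries. The data were droplet-based 3′ single-cell RNA-seq counts of unique molecular identifiers (UMIs) from thymic cells depleted of CD45-positive (hematopoietic) cells and then sorted. The mice were 6 months old, untreated and of strain C57BL/6, and each library came from 10 to 15 thymi digested together. Mice with a wild-type genotype, called mock in the labels (WT, 2 libraries), were compared with mice homozygous for the LacZ allele of Foxn1 (Z/Z, 2 libraries), to ask how reduced Foxn1 changes the thymic stroma. Foxn1 encodes the main transcription factor of thymic epithelial cells (TECs), and the allele is hypomorphic in every cell that uses the gene, so it is no cell-type-specific deletion. The libraries are written WT 1, WT 2, Z/Z 1 and Z/Z 2.

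Sox factors fall into groups by the sequence of their HMG box. The SoxF group (Sox7, Sox17, Sox18) is known for the formation of vessels and the arterial identity of endothelium. In the SoxE group, Sox9 is needed for cartilage and many epithelia, and Sox10 for the neural crest and its glia. The SoxD group (Sox5, Sox6, Sox13) has no activation domain of its own, and Sox5 and Sox6 act beside Sox9 in cartilage. Sox4, of the SoxC group, is used by many progenitor cells and by developing lymphocytes, and Sox2, of the SoxB group, by pluripotent cells, neural progenitors and foregut and airway epithelium.

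Positions are those of GRCm38 with the GENCODE vM21 annotation. Sox17 (chr1:4490931-4497354) and Sox13 (chr1:133382303-133424377) are on chromosome 1, Sox18 (chr2:181669836-181671640) on chromosome 2, Sox2 (chr3:34650405-34652461) on chromosome 3, and Sox5 (chr6:143828425-144781977) on chromosome 6. Sox6 (chr7:115470872-116038796), Sox9 (chr11:112782224-112787760), Sox4 (chr13:28948919-28953713), Sox7 (chr14:63943673-63950732) and Sox10 (chr15:79154908-79165240) are each on another chromosome. Sox2 lies inside Sox2ot on the same strand, so the counts of Sox2 are uncertain. Sox5 overlaps 7 annotated genes, among them Sox5it on the same strand and 5 antisense genes, and Sox6 overlaps Sox6os and Gm45025 on the opposite strand. Sox4 and Sox17 each overlap 1 gene on the opposite strand. Since intronic reads were counted, the long genes Sox5 (953.553 kb) and Sox6 (567.925 kb) collect reads from long introns, and no level is compared between genes below.

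The promoter table taken from RefSeq (GRCm38.p6) holds 5 of the 10 members, Sox2, Sox4, Sox5, Sox6 and Sox13. The sequences before the start sites of Sox4 and Sox5 are printed because these are the members with an entry that were called higher in Z/Z TECs below. The Sox4 sequence (chr13:28953714-28953949, minus strand, 236 bases) ends where the annotated gene begins. The Sox5 sequence (chr6:143947107-143947356, minus strand, 250 bases) precedes the start of a shorter transcript and lies within the span of the annotated gene. The letters ACAAT and ACAAAG, cores bound by many Sox HMG boxes, were searched on both strands, and neither contains the other. Matches are in capitals.
Sox4 promoter: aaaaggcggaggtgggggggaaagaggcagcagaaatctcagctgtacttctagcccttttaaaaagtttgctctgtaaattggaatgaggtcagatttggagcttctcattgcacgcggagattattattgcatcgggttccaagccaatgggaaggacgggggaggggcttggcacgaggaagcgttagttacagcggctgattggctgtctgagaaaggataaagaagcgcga
Sox5 promoter: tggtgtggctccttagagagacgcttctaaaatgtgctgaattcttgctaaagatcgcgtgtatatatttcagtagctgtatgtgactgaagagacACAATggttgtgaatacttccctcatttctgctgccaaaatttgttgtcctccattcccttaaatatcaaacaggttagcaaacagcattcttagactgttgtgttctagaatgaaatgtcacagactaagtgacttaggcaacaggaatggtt
The Sox5 sequence held 1 match, ACAAT, 154 bases before its printed end, and the Sox4 sequence held 0. Of 32851 mouse promoters of 250 bases in the table, 27.7% held ACAAT, 16.5% held ACAAAG and 38.8% held either. A match of so few letters is a description of the sequence and no binding site.

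Of 13981 called cells, 9846 were kept, between 456 (WT 2) and 4455 (Z/Z 1) per library, with a median of 7205 to 12900.5 UMIs per cell. They held 4165 TECs, 2735 fibroblasts, 1502 endothelial cells and 804 mural cells (pericytes and vascular smooth muscle cells, vSMCs), beside small clusters. WT 1 and WT 2 gave 552 and 104 TECs, and Z/Z 1 and Z/Z 2 gave 1960 and 1549. WT 2 held 25 endothelial and 11 mural cells, so its vascular values rest on few cells. Each lineage carried its own markers in every library, with all 6 TEC, fibroblast and endothelial markers detected in the lineage of that name. Foxn1 was at 81.1 and 107 CPM (UMIs of a gene scaled to the same library total) in WT TECs and at 45.4 and 59.8 CPM in Z/Z TECs, lower in both mutant libraries. Foxn1 counts taken near the 3′ end do not tell the altered allele from the normal one. Libraries of a genotype shared called barcodes (202 in WT, 249 in Z/Z), while libraries of different genotype shared at most 6. Of these, 16 and 33 were kept in both libraries, and keeping each in 1 library only changed no count of members called in the 4 lineages.

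Each member had its own place among the cell types. Sox17 and Sox18 were nearly restricted to endothelium, and Sox7 was endothelial with a second site in tuft-like TECs. Sox9 was highest in TECs and lower in fibroblasts. Sox10 was found in an unnamed cluster led by Ctnna2, Ncam1 and S100b, in aaTEC1-like and ionocyte-like TECs and in a few Schwann-like cells. Sox5 was high in fibroblasts, mural cells and aaTEC2-like TECs, Sox6 in vSMC-like and mesothelial-like cells, Sox13 in arterial and vSMC-like cells, and Sox4 in TECs and thymocytes. Sox2 was close to absent, with 57 UMIs in 24 of 9846 cells. Cell types are clusters of these same cells, named "-like" from marker genes, and the levels below are a description without test. They are given as CPM, the mean ± SD over libraries with at least 20 cells of the type.

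**Figure D1:**
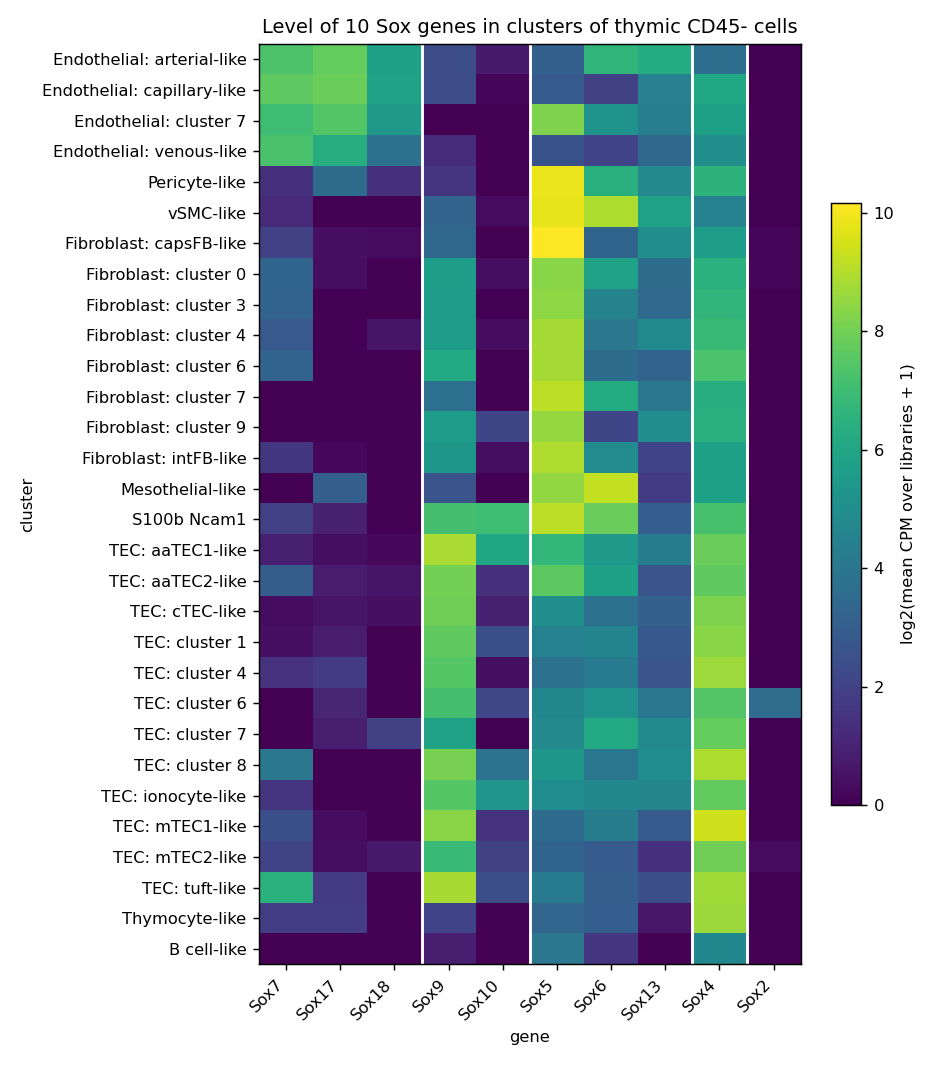
Level of the 10 Sox genes (columns) in each cluster (rows), as log2(mean CPM + 1) over libraries with at least 20 cells of the cluster. Each gene is read down its own column: Sox17 and Sox18 are highest in endothelial rows, with capillary-like means of 232 and 57.3 CPM, whereas Sox9 is highest in epithelial rows (464 CPM in aaTEC1-like cells) and Sox5 in capsular fibroblasts (1143 CPM).

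The SoxF genes marked the endothelium but differed along the vessel. Sox17, needed for arterial identity, was at 232 ± 7.60 CPM in capillary-like cells (n = 3), 218 ± 44.9 in arterial-like cells (n = 2) and 78.9 ± 26.6 in venous-like cells (n = 3). The capillary-like and arterial-like ranges overlapped, and the venous-like range (56.5 to 108 CPM) lay below both. Sox18, a gene of lymphatic and blood vessel development, was at 57.3 ± 21.9, 54.6 ± 27.1 and 13.1 ± 5.29 CPM in the same types. Its capillary-like and arterial-like ranges also overlapped, and its venous-like range (8.17 to 18.7 CPM) lay below both. The arterial-like values came from the Z/Z libraries only. Sox7, the remaining member of the group, was at 196 ± 46.2 CPM in capillary-like, 160.5 ± 32.1 in arterial-like and 148 ± 25.8 in venous-like cells, and these ranges overlapped. A UMI of Sox17 was found in 525 of 1031 capillary-like cells (50.9%, exact 95% interval 47.8% to 54.0%, median 4875 UMIs per cell). It was found in 0 of 627 vSMC-like cells of greater depth (median 6354 UMIs), which allows a share of cells with a UMI of up to 0.478%. These intervals and limits cover counting error only, and a cell without a UMI may still express the gene. Of 1502 endothelial cells, 519 held UMIs of both Sox7 and Sox17, which is 65.9% of the 787 Sox17-positive cells, whereas 57.9% of all endothelial cells held Sox7.

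Sox7 was the SoxF gene with a second site. Tuft-like TECs, chemosensory cells with taste-signalling genes, held it at 69.0 CPM in WT 1 and 109 CPM in Z/Z 2. A UMI was found in 32 of 74 tuft-like cells (43.2%, median 7601.5 UMIs), against 9 of 461 aaTEC1-like cells (1.95%) with a median of 15753 UMIs. Tuft-like cells were 1.78% of TECs and held 92 of the 225 Sox7 UMIs of TECs (40.9%). Sox17 and Sox18 had 37 and 24 UMIs in all TECs.

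**Figure D2:**
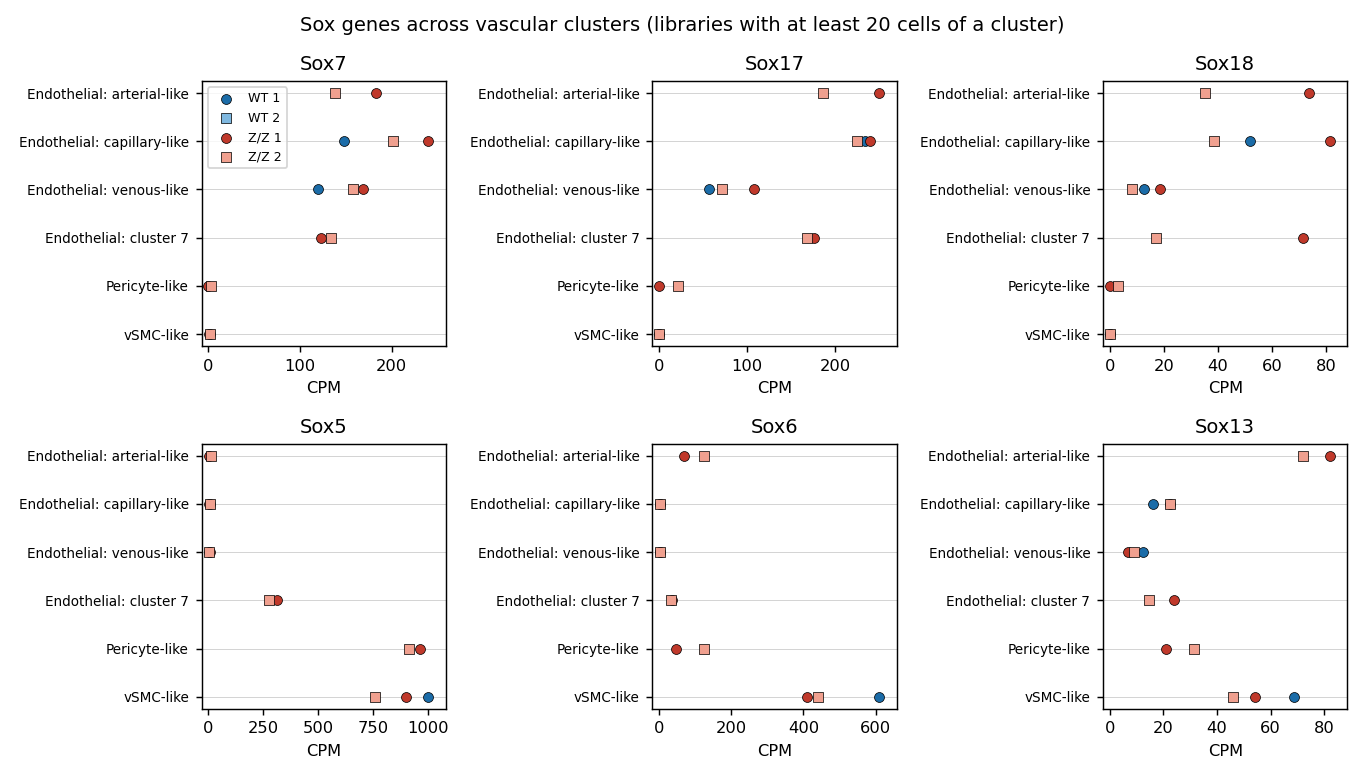
CPM of 6 Sox genes in endothelial and mural clusters, 1 point per library with at least 20 cells of that cluster (WT 2 has no such cluster). Mean Sox17 and Sox18 are lowest in venous-like cells among the endothelial clusters, though for Sox18 the range overlaps that of cluster 7. Sox6 separates arterial-like (98.1 CPM) from capillary-like cells (2.80 CPM), and Sox5 is high in mural cells and in endothelial cluster 7.

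Sox9 and Sox10, the SoxE genes among the members described here, shared the aaTEC1-like cells. These are Epcam-positive TECs led by Otog, Fbxo2 and Ush1c, and aaTEC stands for age-associated TEC. Sox9 was at 464 ± 50.4 CPM there (n = 2) and at 457 ± 49.7 in tuft-like cells (n = 2), ranges that overlapped. It followed at 331 ± 26.03 CPM in mTEC1-like cells (medullary TECs with Ccl21a; n = 3), and was at 103, 111, 134 and 117 CPM in the mTEC2-like cells (medullary TECs with Aire) of the 4 libraries. That range overlapped with cTEC-like cells, which were at 124, 377 and 232 CPM in WT 1, Z/Z 1 and Z/Z 2. Sox9 UMIs were found in 135 of 154 mTEC1-like cells (87.7%, median 16209.5 UMIs) and in 29 of 1031 capillary-like endothelial cells (2.81%, median 4875). They were also found in 199 of 650 intFB-like fibroblasts (30.6%, median 11720). The unnamed cluster led by Ctnna2, Ncam1 and S100b held them in 63 of 141 cells (44.7%, median 7425).

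Sox10 was narrower. Of its 842 UMIs in TECs, 716 (85.0%) came from aaTEC1-like cells, which were 11.1% of TECs. It was at 60.2 and 62.5 CPM in aaTEC1-like cells of Z/Z 1 and Z/Z 2, the only libraries with 20 such cells. A UMI was found in 226 of 461 aaTEC1-like cells (49.0%) and in 7 of 947 aaTEC2-like cells (0.739%), which are led by Ano1, Sparcl1 and Nos1. The aaTEC2-like cells were counted as TECs through the aaTEC2 marker list alone: Epcam was found in 11.7% of them, and among the lineage lists their cluster matched vSMC best, with a low score. The median depth was 15753 and 5938 UMIs, and the deep capsular fibroblasts (median 15606.5) had Sox10 UMIs in 0 of 572 cells, which allows a share of cells with a UMI of up to 0.524%. Of the 284 Sox10-positive TECs, 241 also held Sox9 (84.9%), against 56.7% of all TECs. Among clusters with at least 20 cells in a library, Sox10 was highest in the unnamed cluster led by Ctnna2, Ncam1 and S100b. Its 141 cells all came from Z/Z libraries, with Sox10 at 134 and 122 CPM. Its lineage is not settled, since 40 of these cells matched the TEC list (Epcam in 47.5%) and a division of 57 cells matched the vSMC list best. Ionocyte-like TECs were at 37.8 CPM in 1 library, with a UMI in 5 of 33 cells. Beside them, 14 Schwann-like cells (7 in each Z/Z library) held Sox10 in 10 cells (71.4%, median 4306 UMIs). The unnamed cluster held it in 76 of 141 cells (53.9%, median 7425 UMIs), and no CPM was taken for so few Schwann-like cells.

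Of the SoxD genes, Sox5 had its highest levels in fibroblasts and mural cells, Sox6 in mesothelial-like and vSMC-like cells, and Sox13 in arterial-like endothelium. Sox5 was at 1143 ± 156 CPM in capsular-fibroblast-like (capsFB-like) cells (n = 4), with a UMI in 563 of 572 cells, and capillary-like cells held it in 2.23% of cells. Pericyte-like cells (939 ± 34.9, n = 2) and vSMC-like cells (889 ± 122, n = 3) followed, with overlapping ranges. Within the epithelium, Sox5 was at 202 and 179.8 CPM in aaTEC2-like and 122 and 86.9 CPM in aaTEC1-like cells of the Z/Z libraries, and at 8.54 ± 6.42 CPM in mTEC2-like cells (n = 4). The 2 aaTEC classes held 40.1% (aaTEC1-like) and 35.6% (aaTEC2-like) of the 3347 Sox5 UMIs of TECs. Sox6 was at 593 CPM in mesothelial-like cells (1 library) and 486 ± 108 CPM in vSMC-like cells (n = 3), and far lower in pericyte-like cells (46.2 and 126 CPM). It also divided the endothelium, at 70.2 and 126 CPM in arterial-like cells against 2.00 to 3.34 CPM in capillary-like cells, and 71 of 206 arterial-like cells held a UMI (34.5%) against 16 of 1031 capillary-like cells (1.55%). Sox13 had its highest levels in arterial-like (77.1 ± 7.01, n = 2) and vSMC-like cells (56.3 ± 11.6, n = 3), and these ranges did not overlap. In mural cells, 511 of the 546 Sox6-positive cells also held Sox5 (93.6%), close to the share of all mural cells with Sox5 (91.5%).

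Sox4 was highest in mTEC1-like cells, at 651, 648 and 785 CPM in the 3 libraries with 20 such cells, and 147 of 154 of them held a UMI. Unnamed TEC cluster 8 (481 ± 25.9, n = 3), tuft-like cells (416 ± 213, n = 2), TEC cluster 4 (411 ± 7.29, n = 2) and thymocytes (396 ± 95.3, n = 3) came next, with overlapping ranges. Sox4 was low in vSMC-like (20.9 ± 14.4) and arterial-like cells (11.9 ± 1.71). Barcodes with 10 to 100 UMIs, which stand for free RNA, held Sox4 at 130.5 to 173.5 CPM in the 4 libraries. This was above the Sox4 levels in fibroblast and endothelial sums, and the part of free RNA in those levels was not tested. The same barcodes held Sox5 at 76.8 and 52.8 CPM in WT and 156 and 217 CPM in Z/Z, and Sox9 at 29.4 and 19.7 CPM against 108 and 59.8 CPM, both higher in Z/Z. Sox2 was seen in 7 of 39 goblet-like TECs (17.9%, exact interval 7.54% to 33.5%) and 5 of 14 Schwann-like cells, and in 0 of 1031 capillary-like cells, which allows 0.291%.

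TECs differed in make-up between the genotypes, which bears on each sum below. The mTEC2-like cells were 49.6% and 45.2% of TECs in WT 1 and WT 2, and 2.91% and 5.16% in Z/Z 1 and Z/Z 2. The aaTEC2-like cells were 2.17% and 0% against 28.2% and 24.7%, and aaTEC1-like cells 2.72% and 9.62% against 12.9% and 11.9%. Tuft-like cells were 6.88% and 6.73% against 0.357% and 1.42%.

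**Figure D3:**
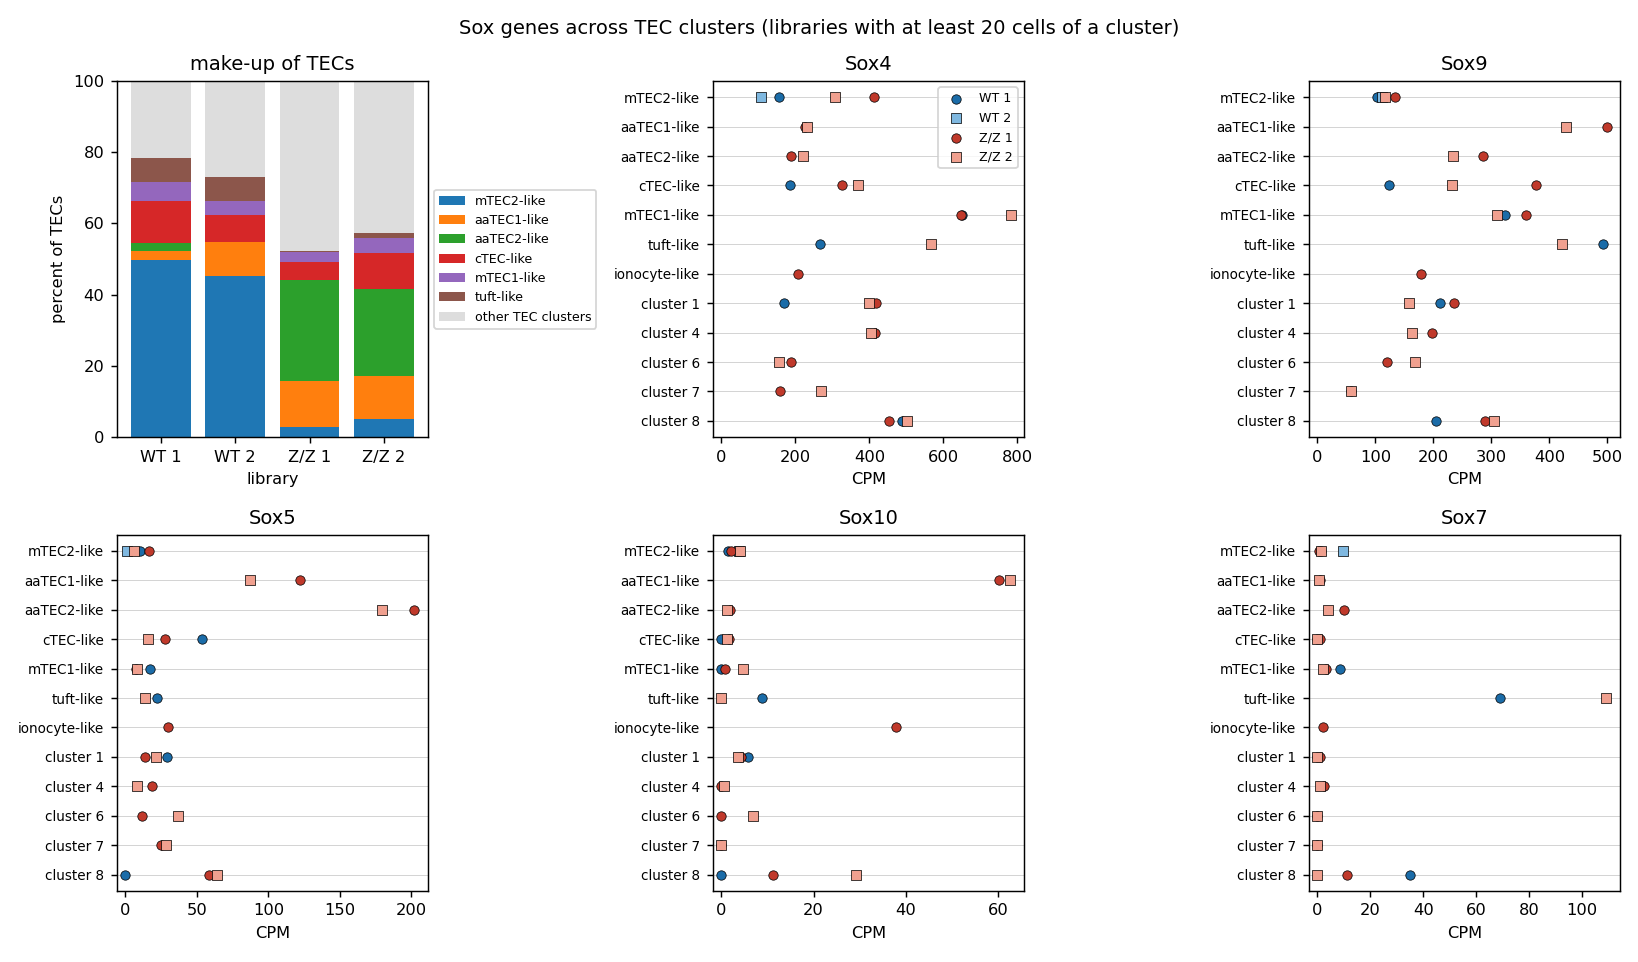
Left, make-up of the TECs of each library as stacked percent of TECs. Right, CPM of Sox4, Sox9, Sox5, Sox10 and Sox7 in each TEC cluster, 1 point per library with at least 20 cells. mTEC2-like cells fall from 49.6% and 45.2% of WT TECs to 2.91% and 5.16% of Z/Z TECs, Sox10 is highest in aaTEC1-like and Sox7 in tuft-like cells.

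In TECs as a whole, Sox4, Sox5, Sox9 and Sox10 were higher in Z/Z than in WT, and no member was called lower. UMIs were summed per library and compared with edgeR's quasi-likelihood test, and levels from here on are CPM with TMM factors unless a class is named. Of the 8 members tested, 4 were called at an adjusted p under 0.05, all higher, where 21.2% of the 19010 genes tested were called 9.42% being higher and 11.8% lower. At an unadjusted p under 0.05 there were 6, and DESeq2 called 5. The libraries of the 2 groups did not overlap for 7 members, against 67.8% of all genes. The median log2 fold change of the 8 was 0.93, and that of all genes −0.01.

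Sox4 was at 193 and 168 CPM in WT TECs and 328 and 365 CPM in Z/Z TECs. Both mutant libraries lay above both controls, with a log2 fold change of 0.94 ± 0.15 (SE; edgeR adjusted p = 0.0162). Sox9 was at 141 and 184 CPM against 339.6 and 277 CPM, again without overlap. Its log2 fold change was 0.93 ± 0.20 (edgeR adjusted p = 0.0297). Sox5 was at 29.0 and 29.5 CPM against 81.0 and 56.8 CPM. The WT libraries lay close together, but the free-RNA level of Sox5 given above was higher than its TEC level in every library. The log2 fold change was 1.24 ± 0.22 (edgeR adjusted p = 0.0202), and 1.16 with empty-droplet UMIs subtracted at an assumed 5% (edgeR adjusted p = 0.0402). Sox10 was at 2.02 and 7.09 CPM, from 29 and 19 UMIs, against 19.5 and 19.2 CPM, from 421 and 373 UMIs. Its log2 fold change of 2.33 ± 0.58 (edgeR adjusted p = 0.0426) was the largest of the members tested, and the WT libraries differed more from each other than the Z/Z libraries did.

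Sox13 and Sox7 did not pass the test. Sox13 was at 2.79 and 6.35 CPM in WT and 13.3 and 10.3 CPM in Z/Z, which is a log2 difference of 1.50 ± 0.46 (edgeR adjusted p = 0.0729). Sox7 was at 5.37 and 10.1 CPM in WT and 3.48 and 2.36 CPM in Z/Z, with −1.35 ± 0.47 (edgeR adjusted p = 0.0957). Sox7 was held to a large part by tuft-like cells, whose share was lower in Z/Z, but their part in its difference was not tested. Without WT 1 its difference was −1.80 (edgeR adjusted p = 0.0379) and after thinning −1.95 (edgeR adjusted p = 0.0178), while Sox13 without WT 2 was at 2.10 (edgeR adjusted p = 0.0129). Sox13 also passed with DESeq2 (adjusted p = 0.0435), with no filter on low counts (edgeR adjusted p = 0.0200) and with stricter limits on cells (edgeR adjusted p = 0.0444). Sox6 (0.35 ± 0.21, edgeR adjusted p = 0.281) and Sox2 (−0.94 ± 1.30, edgeR adjusted p = 0.632) had errors that leave the direction undetermined, and Sox17 and Sox18 had too few UMIs to be tested.

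**Figure D4:**
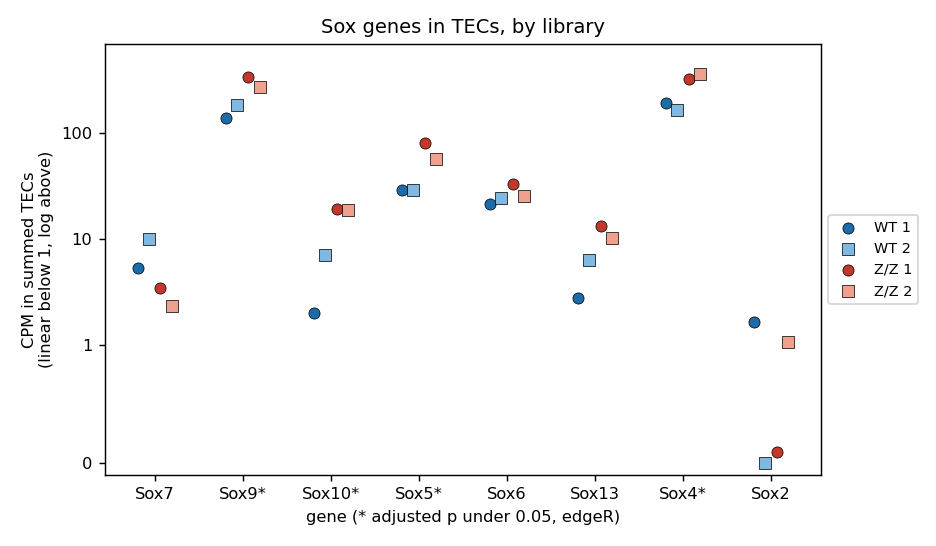
Level of the 8 tested Sox genes in TECs, CPM with TMM factors, 1 point per library (WT 1, WT 2, Z/Z 1, Z/Z 2), on an axis that is linear below 1 and logarithmic above. An asterisk marks edgeR adjusted p under 0.05: Sox4, Sox5, Sox9 and Sox10, whose Z/Z points lie above both WT points.

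All 4 calls in TECs were lost without the mTEC2-like cells. In that fit, the log2 fold changes were 0.34 for Sox4 (edgeR adjusted p = 0.302), 0.18 for Sox5 (edgeR adjusted p = 0.677), 0.32 for Sox9 (edgeR adjusted p = 0.468) and 1.90 for Sox10 (edgeR adjusted p = 0.123), and the sole member called was Sox7, lower by −1.90 (edgeR adjusted p = 0.0467). Without aaTEC1-like cells Sox10 was at 0.79 (edgeR adjusted p = 0.310), and without aaTEC2-like cells Sox5 was at 0.67 (edgeR adjusted p = 0.0989). Sox5 also missed the threshold without aaTEC1-like cells (1.59, edgeR adjusted p = 0.0535), and Sox10 with empty-droplet UMIs subtracted (2.29, edgeR adjusted p = 0.0563). With 1 library left out, the log2 fold changes kept their direction. They were 0.87 to 1.06 for Sox4, 1.003 to 1.49 for Sox5, 0.73 to 1.16 for Sox9 and 1.43 to 3.28 for Sox10. Each of these fits left 1 library in a group, so passing or missing the threshold in them says little about the 4 calls. Fibroblast markers summed to 122 and 105 CPM in WT TECs and 249.9 and 251 CPM in Z/Z TECs, with all 6 markers detected in every library, and their part in the Sox5 result was not tested. The median depth per TEC was 16863.5 and 17716.5 UMIs in WT and 6747.5 and 7051 in Z/Z, and with cells thinned to 2000 UMIs Sox9 no longer passed (0.42, edgeR adjusted p = 0.158).

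Within single TEC classes, Sox4 was higher in Z/Z in some and not in others. Sox4 in cTEC-like cells (cortical TECs with Psmb11 and Prss16) was at 186 CPM in WT 1 and 326 and 368 CPM in Z/Z 1 and Z/Z 2, and in unnamed TEC cluster 1 at 171 against 417 and 398 CPM. In mTEC1-like cells it was at 651 against 648 and 785 CPM, and in TEC cluster 8 at 488 against 452 and 502 CPM, so there WT 1 lay between the mutant libraries. With 1 WT library of enough cells these classes allow no test. The mTEC2-like cells, the TEC class with 20 cells in every library, had Sox4 at 153 and 106 CPM against 419.9 and 326 CPM, a log2 fold change of 1.51 ± 0.26. It did not pass edgeR's test across 12641 genes (adjusted p = 0.229), in which 0.0237% of genes were called. Of 3 members tested there, 0 were called by edgeR, 1 (Sox4) had an unadjusted p under 0.05, and DESeq2 called 1. Sox4 passed in 2 of the 3 alternatives that kept all libraries, and was at 1.28 to 1.80 with 1 library left out. Sox9 in mTEC2-like cells was at 101 and 112 CPM against 136 and 124 CPM (0.29 ± 0.18, edgeR adjusted p = 0.496), and Sox5 had a log2 fold change of 0.77 ± 0.92 (edgeR adjusted p = 0.731). The other 7 members had too few UMIs there to be tested.

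The share of TECs with a UMI moved in the same direction once depth was made equal. After thinning to 2000 UMIs, Sox4 was found in 24.8% and 21.2% of WT and 32.1% and 36.7% of Z/Z TECs, and without thinning in 65.0% and 66.3% against 58.6% and 64.8%. Sox5 was found in 3.86% and 2.88% against 13.4% and 9.89%, and Sox9 in 22.4% and 18.3% against 29.0% and 27.8%. None of these thinned shares overlapped between the groups, but the part of all genes without overlap was not taken for thinned shares. On the summed counts of TECs, 67.8% of all genes tested did not overlap. An exact two-sided permutation test of 2 against 2 libraries cannot go below p = 0.333. Of the Sox4 and Sox9 shares, the unthinned difference had the opposite sign.

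In fibroblasts the members did not pass the test in either direction. Make-up differed there too: cluster 3 was 37.9% and 44.3% of WT and 0.331% and 1.09% of Z/Z fibroblasts, and cluster 0 was 1.84% and 2.08% against 34.1% and 19.7%. Of 6 tested, edgeR called 0, with 1 at an unadjusted p under 0.05, and DESeq2 called 0 (4 of the 10 without an adjusted p), where 2.96% of 13966 genes were called. The libraries did not overlap for 3 members, against 51% of all genes. Sox5, the member with most UMIs there, was at 618 and 576 CPM in WT and 608 and 650.1 CPM in Z/Z, with overlapping groups and a log2 fold change of 0.08 ± 0.16 (edgeR adjusted p = 0.855). Sox9 was at 30.2 and 34.3 CPM against 46.7 and 48.0 CPM, without overlap (0.56 ± 0.17, edgeR adjusted p = 0.119). Sox4 (0.21 ± 0.17), Sox13 (−0.41 ± 0.25), Sox6 (−0.32 ± 0.28) and Sox7 (0.11 ± 0.35) lay closer to 0 relative to their errors. Sox2, Sox10, Sox17 and Sox18 had at most 5 UMIs in a library and were not tested.

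Fibroblast classes differed from the sum. In intFB-like cells, an intermediary class with Cxcl5 and Inmt among its leading genes, Sox6 was at 40.2 and 50.1 CPM in WT and 12.8 and 12.3 CPM in Z/Z, from 37, 14, 42 and 38 UMIs. It fell, with a log2 fold change of −1.79 ± 0.32 (edgeR adjusted p = 0.0259). Sox9 rose in the same cells, from 25.003 and 10.7 CPM (23 and 3 UMIs) to 67.6 and 63.4 CPM (222 and 196 UMIs), a log2 fold change of 1.63 ± 0.32 (edgeR adjusted p = 0.0362). These were 2 of 4 members tested, where 1.45% of 10342 genes were called, and DESeq2 called neither (adjusted p = 0.0822 and 0.0881). The Sox9 levels in intFB-like cells lay near those of free RNA given above, which were also higher in Z/Z, and the part of free RNA in this call was not tested. The intFB-like cells came from fibroblast clusters 1 and 8. Cluster 1 held 71 and 22 WT and 230 and 246 Z/Z cells, and cluster 8 held 1 and 0 against 43 and 37. The part of this make-up in the Sox6 and Sox9 calls was not tested. Sox4 (0.85 ± 0.31, edgeR adjusted p = 0.244) and Sox5 (0.29 ± 0.18, edgeR adjusted p = 0.501) did not pass, and the other 6 members were not tested. The capsFB-like cells came from 2 clusters that the genotypes filled differently. Cluster 5 held 133 and 21 of the WT and 43 and 38 of the Z/Z cells, and cluster 2 held 21 and 8 against 152 and 156. In these cells edgeR called 0 of 6, with 3 at an unadjusted p under 0.05, and DESeq2 called 1, where 3.67% of 10770 genes were called. Sox4 there was at 30.7 and 23.1 CPM against 49.8 and 95.3 CPM (1.35 ± 0.33, edgeR adjusted p = 0.0551). It passed with DESeq2 (adjusted p = 0.0333), with no filter, without WT 2 (1.24, edgeR adjusted p = 0.0366) and without Z/Z 1 (1.77, edgeR adjusted p = 0.000500), and was at 0.84 without Z/Z 2 (edgeR adjusted p = 0.366). Sox13 was at 42.9 and 41.5 CPM against 17.8 and 24.99 CPM (−0.99 ± 0.26, edgeR adjusted p = 0.0653). Sox5, high in this class, was at 1093 and 1349 CPM against 1123 and 1033 CPM (−0.18 ± 0.17, edgeR adjusted p = 0.621). Sox9 (1.48 ± 0.45), Sox7 (1.52 ± 0.98) and Sox6 (0.18 ± 0.50) did not pass (edgeR adjusted p from 0.112 to 0.896), and Sox2, Sox10, Sox17 and Sox18 were not tested.

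In endothelial cells, edgeR called 0 of the 8 members tested, with 3 at an unadjusted p under 0.05, and DESeq2 called 0 (8 of the 10 without an adjusted p), where 1.18% of 11445 genes were called. The groups did not overlap for 5 members, against 53.4% of all genes. Sox7 was at 134 and 121 CPM in WT and 215 and 183 CPM in Z/Z (0.62 ± 0.22, edgeR adjusted p = 0.173). Sox17 was at 178 and 107 CPM against 219 and 186 CPM (0.41 ± 0.25, edgeR adjusted p = 0.407), with the 23 UMIs of WT 2 the lowest value. Sox18 was at 36.3 and 32.5 CPM against 70.8 and 30.4 CPM (0.52 ± 0.43, edgeR adjusted p = 0.558), and its groups overlapped. The 2 Z/Z libraries thus differed more from each other in Sox18 than the WT libraries did.

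Sox4 and Sox5 had the smallest p in endothelium. Sox4 was at 25.2 and 13.9 CPM against 76.2 and 47.9 CPM (1.45 ± 0.37, edgeR adjusted p = 0.0749), from 25, 3, 421 and 247 UMIs. Sox5 was at 12.1 and 4.64 CPM against 36.8 and 28.7 CPM (1.63 ± 0.43, edgeR adjusted p = 0.0827). Of the 364 endothelial Sox5 UMIs, 302 (83.0%) came from endothelial cluster 7, 3.46% of the cells, which has Acta2 and Sox5 itself among its leading genes. Its cells were deep, with a median of 19370.5 UMIs against 4875 in capillary-like cells, and whether they are single cells was not tested. Without that cluster the Sox5 difference was −0.47 (edgeR adjusted p = 0.753). Pericyte markers summed to 71.0 and 59.5 CPM in WT endothelial sums and 243 and 218 CPM in Z/Z sums, 1 of 5 of them detected in every library, and their part was not tested. Sox6 was at 11.1, 129.8, 17.2 and 23.6 CPM, and the WT 2 value came from 28 UMIs, 27 of them in arterial-like cells. The difference was −1.15 ± 0.75 (edgeR adjusted p = 0.438), 0.87 without WT 2 (edgeR adjusted p = 0.291) and −2.63 without WT 1 (edgeR adjusted p = 0.00600). Sox13 (−0.07 ± 0.38) and Sox9 (1.18 ± 0.99, from at most 20 UMIs in a library) gave no call, and Sox2 (0 UMIs) and Sox10 (2 UMIs) were not tested.

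In mural cells edgeR called 0 of 5 members, with 0 at an unadjusted p under 0.05, and DESeq2 called 0 (8 of the 10 without an adjusted p), where 0.132% of 9100 genes were called. The groups did not overlap for 2 members, Sox5 and Sox6, against 43.5% of all genes. Sox5 was at 1027 and 1316 CPM in WT and 968 and 796 CPM in Z/Z (−0.40 ± 0.26, edgeR adjusted p = 0.666). Sox6 was at 595 and 468 CPM against 360.1 and 389.6 CPM (−0.53 ± 0.26, edgeR adjusted p = 0.570). Sox4 (0.88 ± 0.62), Sox9 (0.18 ± 0.73) and Sox13 (−0.33 ± 0.35) had overlapping groups. Sox2, Sox7, Sox10, Sox17 and Sox18 had at most 7 UMIs in a library and were not tested. The WT 2 values rest on 11 mural cells.

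**Figure D5:**
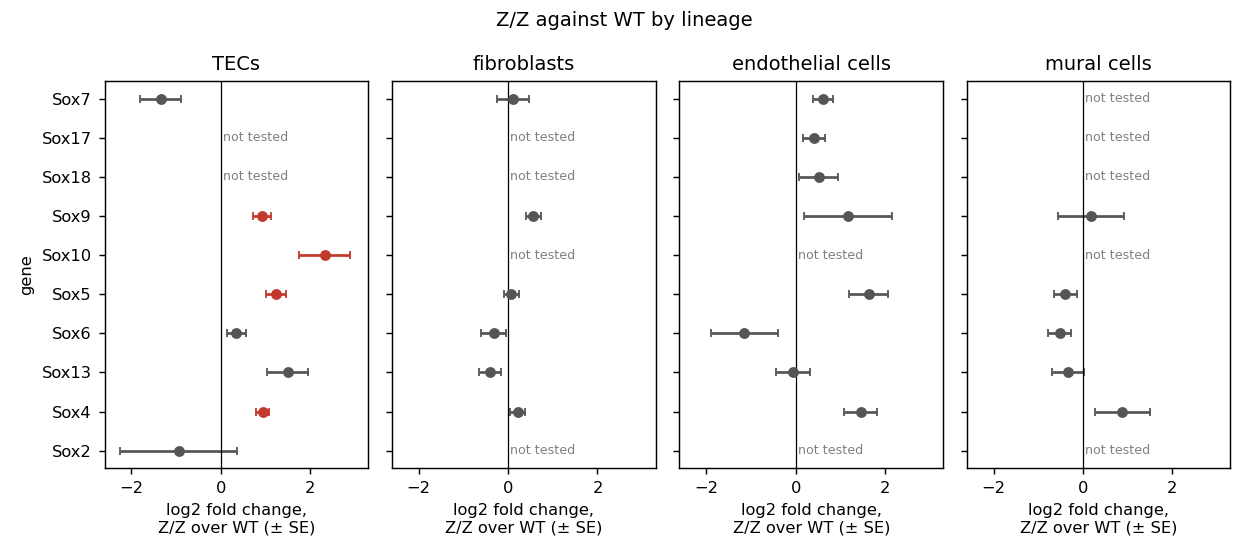
log2 fold change of each Sox gene, Z/Z over WT, in TECs, fibroblasts, endothelial cells and mural cells. Bars are the SE, red marks edgeR adjusted p under 0.05, and genes that were not tested are labelled. The 4 red points, Sox4, Sox5, Sox9 and Sox10 in TECs, lie at 0.94 to 2.33.

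Whether the genotype effect itself differed between lineages was tested in 1 fit of 12 sums. Between fibroblasts and TECs, 3 of 9 members differed, where 12.5% of 17735 genes did. The effect in fibroblasts was lower than in TECs by −1.11 ± 0.26 for Sox5 (edgeR adjusted p = 0.0123) and by −2.06 ± 0.46 for Sox13 (edgeR adjusted p = 0.00970), and higher by 1.36 ± 0.39 for Sox7 (edgeR adjusted p = 0.0349). Between endothelial cells and TECs, 1 of 9 differed, where 6.42% of genes did. It was Sox7, whose effect was 1.95 ± 0.34 higher in endothelium (edgeR adjusted p = 0.00404). Between endothelial cells and fibroblasts, edgeR called 0 of 9, with 3 at an unadjusted p under 0.05, where 0.389% of genes were called, and DESeq2 was not run on this fit. The effects of Sox4, Sox9 and Sox10 were not shown to differ between TECs and fibroblasts or endothelial cells (edgeR adjusted p from 0.152 to 0.965). Without mTEC2-like cells the Sox5 difference between fibroblasts and TECs was −0.11 (edgeR adjusted p = 0.919) and that of Sox13 −1.17 (edgeR adjusted p = 0.259). The Sox7 difference between fibroblasts and TECs did not pass without Z/Z 2 (1.13, edgeR adjusted p = 0.203) or after thinning (2.03, edgeR adjusted p = 0.0613). That of Sox5 did not pass without WT 1 (−1.04, edgeR adjusted p = 0.0586) or without Z/Z 1 (−0.81, edgeR adjusted p = 0.386). That of Sox13 did not pass without WT 1 (−0.92, edgeR adjusted p = 0.227), without Z/Z 1 (−1.74, edgeR adjusted p = 0.0603) or after thinning (−1.66, edgeR adjusted p = 0.137).

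Genes known as partners or targets of these factors were counted in the same fits, beside the background shares above. Of the other Sox genes, 4 of 9 were tested in TECs, and Sox21, expressed in epithelia and neural progenitors, fell from 10.8 and 14.6 CPM to 1.62 and 1.64 CPM (−2.93 ± 0.35, edgeR adjusted p = 0.00947). Of the 4 HMG-box factors of the Wnt pathway, Tcf7l1 was higher (0.73 ± 0.17, edgeR adjusted p = 0.036) and Tcf7, a T cell factor, lower (−1.31 ± 0.31, edgeR adjusted p = 0.040). Thymocyte markers summed to 89.4 and 52.5 CPM in WT TECs and 16.7 and 72.3 CPM in Z/Z TECs, with all 8 detected in every library, and their part in the Tcf7 value was not tested. Of 10 cartilage genes linked to Sox9, Sox5 and Sox6, all 10 were tested in TECs and 1 was called, Col11a2, a fibrillar collagen chain (2.36 ± 0.24, edgeR adjusted p = 0.008). The median of that list was −0.25. Of 10 endothelial genes linked to SoxF factors, Notch1 was higher in TECs (1.22 ± 0.19, edgeR adjusted p = 0.015) with a list median of −0.39, and in endothelium Cldn5, a tight-junction gene, was higher (1.22 ± 0.24, edgeR adjusted p = 0.038) with a list median of 0.39. Of 7 Sox10-linked genes, 6 were tested in TECs, where Pmp22 (1.93 ± 0.27, edgeR adjusted p = 0.012) and Ednrb (2.14 ± 0.30, edgeR adjusted p = 0.012) were higher and Mbp was lower (−1.31 ± 0.20, edgeR adjusted p = 0.015), with a list median of 0.58. Ednrb, the endothelin B receptor, was also higher in fibroblasts (4.03 ± 0.38, edgeR adjusted p = 0.001), where it is among the leading genes of cluster 0, and endothelium (1.50 ± 0.26, edgeR adjusted p = 0.024). Of 5 genes linked to Sox4, edgeR called 0 in TECs, where all 5 were tested with a median of 0.47. No gene of these lists was called by edgeR in mural cells.

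The genes whose pattern was most like a member's were found by Pearson's r of log2(CPM + 1) over the 17 named cell types, which share libraries and depth, so no p is given. For Sox17 they were Bcl6b, Grrp1 and Robo4 (r = 0.97 each), for Sox18 Dipk2b, Gata2 and Ckmt2 (0.99, 0.98 and 0.98), and for Sox7 Cdh13, Rab11a and Cda (0.92, 0.90 and 0.89). For Sox10 they were Acot5, Cldn14 and Chad (0.98, 0.97 and 0.97), and for Sox9 Rab15, Spint1 and Gm26688 (0.93 each). The 17 types leave out the unnamed cluster led by Ctnna2, Ncam1 and S100b, where Sox10 had its highest CPM. They also leave out the few Schwann-like cells, so the values of r for Sox10 describe its pattern without these sites. For Sox5 they were Cebpb, A530013C23Rik and Fxyd1 (0.96, 0.94 and 0.93), for Sox6 Gm34934, Tmem115 and Selenow (0.87, 0.86 and 0.84), and for Sox13 A230059L01Rik, Tspan12 and Pqlc1 (0.89, 0.89 and 0.85). For Sox4 they were 2610307P16Rik, B4galnt1 and Ube2e3 (0.91, 0.90 and 0.89). Among the members themselves, Sox17 and Sox18 were most alike (r = 0.95), Sox9 was closest to Sox4 (0.71) and Sox10 (0.67), and Sox5 to Sox6 (0.64). Robo4, an endothelial guidance receptor, also stood on the list of SoxF-linked genes.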

How the data were processed

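Per the labels, cells were processed with a 10x Genomics kit and Cell Ranger 7.01, and the study's methods name the mm10 reference. The authors deposited raw and filtered matrices of UMI counts per gene and barcode, which are not normalised, and summaries of each library. Per the deposited summaries, 64.7 to 67.3 percent of reads mapped confidently to the transcriptome and 49 to 51.4 percent to exons, so intronic reads were counted, and sequencing saturation was 65.2 to 95.2 percent. Total UMIs in called cells were 29298450 (WT 1), 8468086 (WT 2), 50705511 (Z/Z 1) and 41475499 (Z/Z 2).

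Barcodes with over 1000 genes and under 20% mitochondrial UMIs were kept. Scrublet's own threshold marked 82 of 10245, so the 3.9% with the highest scores in each library, the multiplet rate stated for the kit, were removed. Cells were clustered with scanpy 1.11.5 and leidenalg 0.10.2 (3500 variable genes, 35 components, 45 for TECs, 20 neighbours, resolution 1), with 201 marker, list and Sox genes held out. Clusters were named from marker lists, and 1 cluster of 946 cells with Epcam in 11.6% was joined to the TECs through the aaTEC2 list. The score limits for a name, the rule on low-UMI clusters, and the separation of the 14 Schwann-like cells were chosen after seeing the data. The members and lists were chosen with earlier results of these data known.

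UMIs were summed per library and lineage and tested with edgeR 4.0.16 in R 4.3.3 (TMM, filterByExpr, quasi-likelihood F test, Benjamini-Hochberg over all genes tested, threshold 0.05), two-sided. The test between lineages had library as a block. Classes were tested where every library had 20 cells. DESeq2 1.42.0 was an alternative, beside no filter, a replicate block, leaving out libraries, subtraction of empty-droplet UMIs, thinning, stricter limits and other clusterings. The scripts were tested on simulated data. The rule for named genes was all 10 members in every comparison and, of each list, up to 4 called genes per lineage. The labels do not say that libraries came from separate experiments, so p-values measure the spread between these libraries. The labels give the mice as female in one field and male in another.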

Additional observations from a re-analysis of the deposited data

Results flagged for a closer look

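Of the tests of whether the Z/Z effect differed between lineages, 4 passed for a member. For Sox5 the effect in fibroblasts minus that in TECs was −1.11 on the log2 scale, for Sox7 it was 1.36 and for Sox13 −2.06. For Sox7 the effect in endothelial cells minus that in TECs was 1.95. Without mTEC2-like cells the Sox5 difference was −0.11 (edgeR adjusted p = 0.919) and that of Sox13 −1.17 (edgeR adjusted p = 0.259). With a library left out or after thinning, the differences between fibroblasts and TECs each missed the threshold at least once. The Sox7 difference between endothelial cells and TECs kept its direction in the 6 alternatives run on it, with values from 1.55 to 3.10. It passed the edgeR test after thinning and without mTEC2-like cells, and no fit without tuft-like cells was run. Sox7 passed in neither lineage alone (edgeR adjusted p = 0.0957 in TECs and 0.173 in endothelial cells). Its TEC sums held 77 and 27 UMIs in WT and 75 and 46 in Z/Z.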

How the results depend on the processing

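The count of members called in TECs was 4. It was 1 without mTEC2-like cells and 2 without aaTEC1-like cells, an alternative chosen after seeing the data, and 0 to 5 with 1 library left out (0 without Z/Z 1, where edgeR called 0 of 19868 genes). In endothelial cells the count of 0 became 2 with no filter and 2 with the replicate block (Sox4 1.64, edgeR adjusted p = 0.0129; Sox5 1.79, edgeR adjusted p = 0.0499), and was 0 to 1 with 1 library left out. The count between lineages, 4, was 2 after thinning, 2 without mTEC2-like cells and 2 to 5 with 1 library left out. The count in classes, 2, was 6 with no filter and 2 to 5 with 1 library left out. Counts in fibroblasts and mural cells stayed 0 in all alternatives run. Except where a count over all genes is given here or below, these counts stand without the share of all genes called in the same fit. A change in them is therefore not read as a result about the members.

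The labels do not say that replicate numbers pair the libraries. The correlation of the deviations of same-numbered libraries was −0.0805 in TECs, −0.0402 in fibroblasts, −0.0105 in endothelial and −0.0248 in mural cells. Counting noise in the smaller libraries lowers such values, so they do not settle whether same-numbered libraries shared a batch. With the block, 3 members were called in TECs and 2576 genes in all against 4036, and in endothelial cells 305 genes against 135.

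Differences in shares of cells changed sign without thinning for Sox4 (−4.03 percentage points) and Sox9 (−0.943) in TECs, Sox17 in endothelium (−2.19, and −3.99 with thinning to 1000 UMIs) and Sox5 in fibroblasts (−0.759). With 1 library left out, the Sox17 share ranged from −0.799 to 8.17 and the Sox18 share from −3.67 to 4.39. Log2 fold changes of members that had not passed also changed sign. In TECs, Sox6 was at −0.39 without mTEC2-like and −0.035 without aaTEC1-like cells. In fibroblasts, Sox7 was at −0.38 with empty-droplet UMIs subtracted. In endothelium, Sox5 was at −0.40 after thinning, −0.75 in capillary-like cells and −0.47 without cluster 7, and Sox13 at 0.023 with no filter. With 1 library left out, ranges that crossed 0 were −3.34 to 6.10 (Sox2, TECs), −0.75 to 0.10 (Sox6) and −0.21 to 0.34 (Sox7) in fibroblasts, −2.63 to 0.87 (Sox6), −0.81 to 0.34 (Sox13) and −0.21 to 0.998 (Sox18) in endothelium, and −0.43 to 1.77 (Sox4) and −0.49 to 0.31 (Sox13) in mural cells. Causes were not tested. A lone library left in a group was assumed to vary like the other group. The 25 endothelial and 11 mural cells of WT 2 limit the vascular comparisons.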

Other observations

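The unnamed cluster led by Ctnna2, Ncam1 and S100b had 110 cells in Z/Z 1, 31 in Z/Z 2 and 0 in both WT libraries. Beside Sox10 it held Sox5 at 562 ± 30.8 CPM and Sox6 at 227 ± 41.3 CPM (n = 2). Of its 84 Sox6-positive cells, 77 also held Sox5 (91.7%), against 86.5% of all its cells. Mesothelial-like cells, 4 in Z/Z 1 and 27 in Z/Z 2, held a Sox6 UMI in 28 of 31 cells (90.3%).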
